A study of Mus musculus with 6 samples.

Results

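The genes described are 31 p53 target genes, with Trp53 itself and the inhibitors of p53 included, in mouse Th17 cells, T helper cells that secrete interleukin 17. The members were the rows of the gene table whose symbol is on the list, and all 31 of 31 were found among 24182 genes. RNA was sequenced in bulk from 6 libraries, 3 labelled Sirt2 KO (CRISPR/Cas9 knockout of Sirt2, which encodes a NAD-dependent protein deacetylase) and 3 labelled Sirt2 WT (controls). The cells of all 6 libraries were stimulated for 72 hours with anti-CD3 at 0.5 μg/mL and anti-CD28 at 1 μg/mL, antibodies that drive T cell activation, and all carry the treatment label "untreated". The labels do not state the guide, whether KO cells were a clone or a pool, the strain and age of the mice, or whether the replicates were separate cultures or animals. p-values therefore measure only the spread over these 6 libraries, and that spread may be technical.

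The protein p53 is a transcription factor that is kept low by the ubiquitin ligase Mdm2 and its partner Mdm4, and is stabilised after DNA damage, nucleolar stress or oncogene activity. It then binds paired half-sites near its target genes, whose products stop the cell cycle, repair DNA, adjust metabolism or kill the cell, and it induces Mdm2 and the phosphatase Ppm1d, which switch it off again. Proliferating T cells express p53 and many of its targets without added damage. SIRT2 has been described as one of several deacetylases that act on p53.

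The sequence that p53 reads was looked for in the RefSeq promoter windows of GRCm38.p6, each with 250 bases before and 50 bases after a gene start, which were matched by symbol for 25 of the 31 members (not Ddb2, Perp, Rrm2b, Trp53inp1, Xpc or Zmat3). The search used the p53 response element consensus of 20 letters, 2 half-sites of 10 letters with no spacer, with at least 18 letters matched and the C and G of both cores kept. The half-site is its own reverse complement as a pattern, so both strands are covered. Such an element lay in a window of 3 of the 24 tested members with a window (12.5 percent), against 0.473 percent of 7820 tested genes with a window. A full half-site, which every element shown here contains, lay in a window of 12 of the 24 (50 percent), against 7.81 percent. The 3 elements and the half-sites of Mdm2 and Trp53 are shown 5′ to 3′ on the gene's strand, since these genes carry the results that follow, with the element or half-site in capitals (19 of 20 letters matched in each of the 3 elements).
Cdkn1a: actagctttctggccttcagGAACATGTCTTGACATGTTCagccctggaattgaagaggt
Ccng1: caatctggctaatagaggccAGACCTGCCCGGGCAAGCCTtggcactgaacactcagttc
Gtse1: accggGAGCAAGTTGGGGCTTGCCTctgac
Mdm2: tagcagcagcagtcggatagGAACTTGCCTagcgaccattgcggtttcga
Trp53: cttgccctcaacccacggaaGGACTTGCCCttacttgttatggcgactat
The Cdkn1a element (chr17:29090928-29090947, plus strand) begins at position -51 from the upstream start of the gene and ends 2822 bases before the downstream start at 29093769, whose own window held neither a half-site nor an element. The Ccng1 element (chr11:40755462-40755481, minus strand) begins at position -195 from the RefSeq start, and that of Gtse1 (chr15:85859945-85859964, plus strand) begins at position -1 from one of its RefSeq starts. The half-site of Mdm2 (chr10:117710935-117710944, minus strand) begins at position -186 from its first-exon start and that of Trp53 (chr11:69580284-69580293, plus strand) at position -75. The only Mdm2 window lies around that first-exon start and ends inside the first exon, so the first intron of Mdm2 was not searched. A match describes letters and is not evidence that p53 is bound there.

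The libraries were not alike within the KO group. FPKM, the unit of the authors' tables, is fragments per kilobase scaled to the library total. KO replicate 3 had a correlation over the tested genes of 0.990 with each WT library on the log2(FPKM + 1) scale, and of 0.981 and 0.979 with the other two KO libraries (genes are no replicates of each other). Sirt2 was low in all KO libraries, KO replicate 3 included. It measured 11.2, 13.5 and 10.9 FPKM across the KO libraries against 20.7, 19.9 and 21.9 FPKM across the WT libraries, where values, here and in what follows, are in the order of replicates 1, 2 and 3. Its log2 fold change was -0.76 by limma (adjusted p = 0.0429, and 0.00905 without KO replicate 3). The Sirt2 call was lost with median scaling, no filter, a filter at 5 FPKM, no mean trend, the replicate number as a block, adjusted p under 0.01, and without KO replicate 1 or any single WT library. Gene length also moved with the libraries: the Spearman correlation of exonic length with the difference from the WT mean, across genes, was -0.30, -0.42 and 0.17 in KO replicates 1 to 3. Of the Th17 and T cell markers 12 of 12 reached 1 FPKM in some library, with summed levels of 592 to 782 FPKM across the KO libraries against 734 to 778 FPKM across the WT libraries. Summed markers of 3 other cell groups were higher in every KO library than in every WT library. The 12 myeloid markers summed to 40.7 to 40.9 FPKM across the KO libraries against 30.2 to 31.5 FPKM across the WT libraries, the 8 B cell markers to 22.8 to 27.7 against 19.1 to 19.7 FPKM, and 8 of 10 cytotoxic and NK markers found in the table to 24.2 to 27.2 against 9.08 to 9.90 FPKM. No marker of these 3 lists was at 0 in every library, and 8, 6 and 4 of them, in that order, stayed under 1 FPKM throughout. Single markers above WT in all KO libraries were 8 of 12 myeloid, 4 of 8 B cell and 4 of 8 cytotoxic and NK markers. The T cell and Th17 list had 1 of 12, and the share over all tested genes was 4.28 percent. Markers under 1 FPKM throughout are not among those tested genes. The 9 erythroid and fibroblast markers overlapped between groups, with sums of 0.0751 to 0.205 FPKM across the KO libraries against 0.0809 to 1.05 FPKM across the WT libraries. The part of these marker differences in the results was not tested, and in bulk RNA more cells of a type and more RNA per cell cannot be told apart. Because of KO replicate 3, fits are given with all libraries and without it.

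Of the 31 members, 30 reached 1 FPKM in at least 3 libraries and were tested. With all libraries 0 of 30 differed between KO and WT by limma, beside 12 of 10873 genes (0.110 percent) in the same fit. The lowest adjusted p among members was 0.843, and 1 member, Perp, had an unadjusted p under 0.05, beside 5.61 percent of all tested genes. The fitted log2 fold changes ran from -0.32 to 0.39, with a median of 0.0875 beside -0.0252 over all tested genes, and 18 of 30 were above 0, beside 41.3 percent of all genes. In the authors' deposited table, values of p under 0.05 were listed for 5 of the 31 members, Cdkn1a, Mdm4, Perp, Zmat3 and Plk2, beside 4.74 percent of its genes, and the lowest q among members was 0.756.

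Taken one by one, the KO libraries went different ways. In KO replicate 1, 17 of 30 members lay above all 3 WT libraries and 8 below them, beside 27.0 and 44.4 percent of all tested genes. KO replicate 2 had 15 above and 10 below, beside 31.8 and 42.4 percent, and KO replicate 3 had 12 above and 9 below, beside 33.2 and 31.2 percent. Which members lay above differed. Aen, Btg2, Ccng1, Cdkn1a, Ei24, Gtse1 and Phlda3 were above every WT library in KO replicates 1 and 2 and below every WT library in KO replicate 3, a pattern of 7 of 30 members (23.3 percent) and 9.16 percent of all tested genes. The opposite pattern was seen in 1 member, Trp53inp1, and in 14.9 percent of all genes. KO replicates 1 and 2 were both above WT for 12 members and both below for 4, beside 18.9 and 31.2 percent of all genes. These patterns were noticed in the values and have no test.

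**Figure D1:**
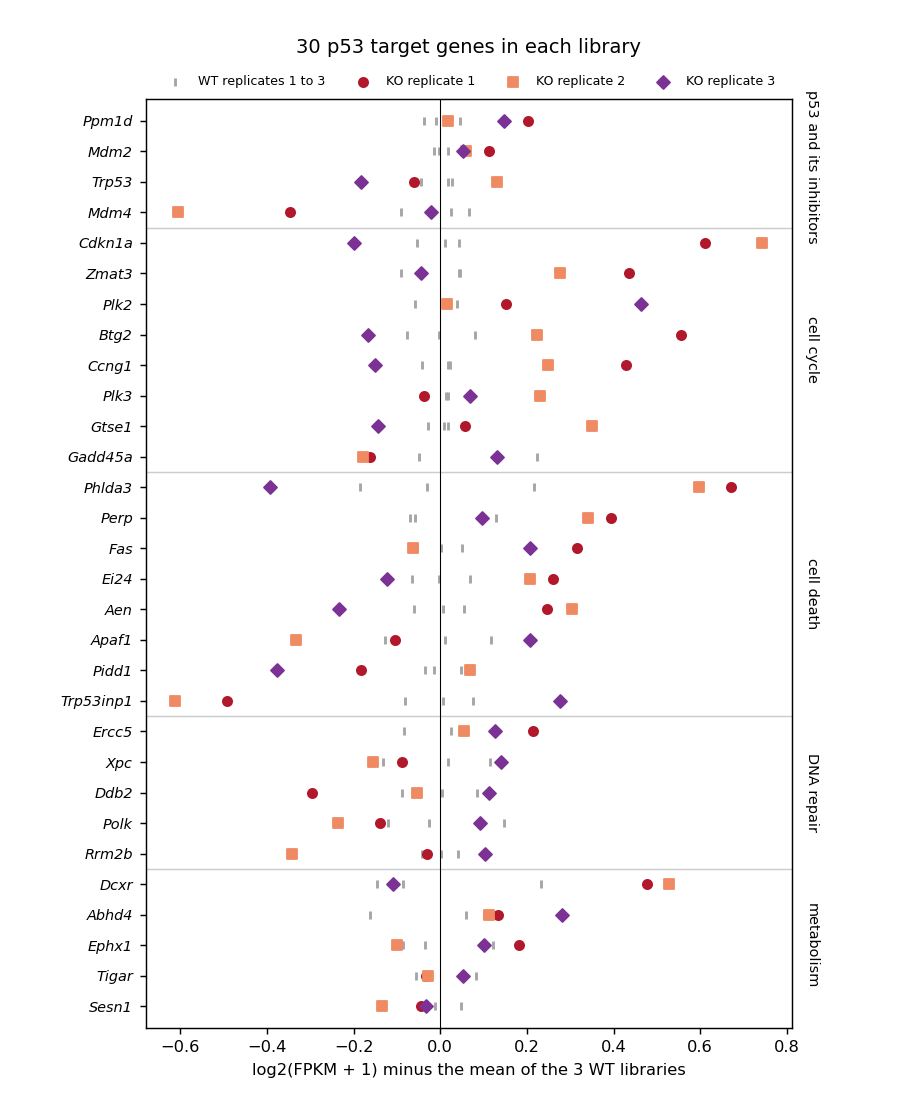
Difference of log2(FPKM + 1) from the mean of the 3 WT libraries (x axis) for the 30 tested members, ordered by role (y axis), with each KO library a coloured symbol and each WT library a grey tick. Cdkn1a, Phlda3, Btg2 and Ccng1 lie to the right in KO replicates 1 and 2 and to the left of every WT tick in KO replicate 3.

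**Figure D2:**
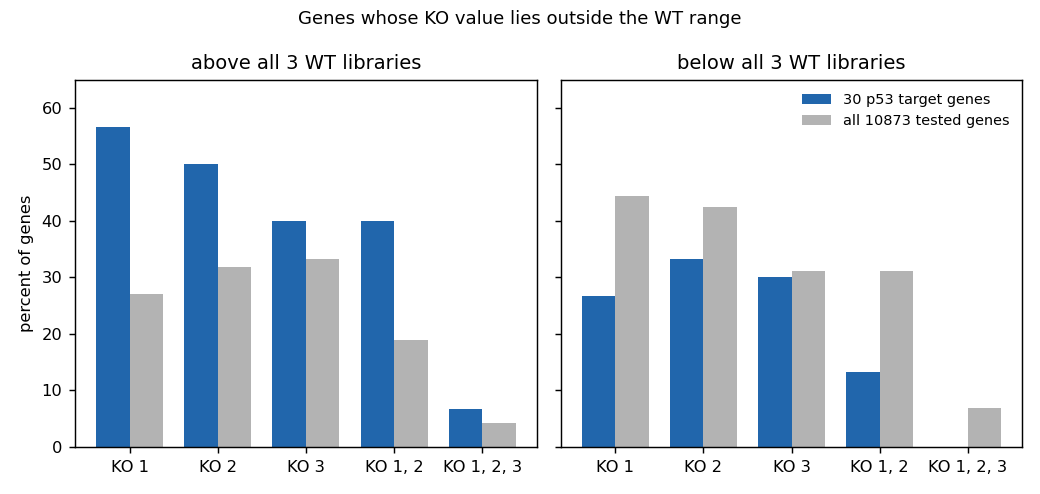
Percent of genes (y axis) whose value lies above (left) or below (right) all 3 WT libraries in each KO library, in KO replicates 1 and 2 together and in all 3 KO libraries, for the 30 members (blue) and all 10873 tested genes (grey). Above the WT range the members' share is 56.7 percent in KO replicate 1 and 40.0 percent in KO replicate 3, beside 27.0 and 33.2 percent of all genes.

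Without KO replicate 3, 9 of 30 members passed, beside 10.1 percent of 10726 genes. Of these 7 rose and 2 fell, 23.3 and 6.67 percent of the members, beside 4.0 and 6.14 percent of all genes. The falls were near the background and the rises above it. The members were chosen with earlier results of these data known, so this comparison is a description without a test. The risers were Aen, Ccng1, Cdkn1a, Dcxr, Perp, Phlda3 and Zmat3, and Mdm4 and Trp53inp1 fell. When linear trends with length and GC content were removed as well, 6 rose and 2 fell, beside 3.62 and 5.89 percent of all genes (9.51 percent in all). Dcxr (0.50 to 0.38 on the log2 scale, limma adjusted p = 0.120) and Phlda3 (0.63 to 0.53, adjusted p = 0.0506) no longer passed with these trends removed, and Ei24 did (0.23 to 0.26, adjusted p = 0.0378). Without KO replicate 1 or without KO replicate 2 there were 0 calls among the members, beside 0 genes (0.00 percent) and 6 genes (0.0556 percent). Array weights, which let limma weigh each library by its fit and gave KO replicate 3 the lowest weight, called 12 members (10 rose, 2 fell), beside 20.9 percent of all genes (7.59 higher and 13.3 lower). The calls without KO replicate 3 rest on 2 KO libraries.

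The regulators of p53 come first. Trp53 (ENSMUSG00000059552, GRCm38 chr11:69580359-69591873, plus strand) encodes p53. It measured 39.5, 45.2 and 36.2 FPKM across the KO libraries against 42.0, 41.7 and 40.0 FPKM across the WT libraries. The KO values fell on both sides of the WT values, with KO replicate 2 highest and KO replicate 3 lowest of the 6. Trp53 had a log2 fold change of -0.04 (95% interval -0.24 to 0.17) with a limma adjusted p of 0.938. An exact permutation test, two-sided, gave p = 0.7, and without KO replicate 3 the sign turned (0.04, adjusted p = 0.753).

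Mdm2 (ENSMUSG00000020184, chr10:117688875-117710758, minus strand), the ubiquitin ligase that p53 induces and that degrades p53, was at 19.9, 19.2 and 19.1 FPKM across the KO libraries against 18.6, 18.1 and 18.3 FPKM across the WT libraries. All KO libraries lay above all WT libraries, by a small margin: 19.4 ± 0.458 against 18.3 ± 0.217 FPKM (SD, n = 3 each). Mdm2 had a log2 fold change of 0.07 (95% interval -0.07 to 0.22) with a limma adjusted p of 0.870 (0.301 without KO replicate 3). An exact permutation test, two-sided, gave p = 0.1, the least that 6 libraries can give. Mdm2 was 1 of 2 members, with Abhd4, whose KO values all lay above WT (6.67 percent of members, beside 4.28 percent of all genes), and 0 members had all KO values below WT (beside 6.88 percent).

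Mdm4 (ENSMUSG00000054387, chr1:132959484-133030561, minus strand), which binds p53 and blocks its activity, was at 6.66, 5.40 and 8.59 FPKM across the KO libraries against 9.19, 8.90 and 8.15 FPKM across the WT libraries. KO replicates 1 and 2 were below every WT library and KO replicate 3 was among them. With all libraries Mdm4 differed by -0.32 on the log2 scale (SE 0.143) with a limma adjusted p of 0.843, and without KO replicate 3 it fell by 0.48 (adjusted p = 0.0299). Mdm4 has the longest exonic sequence of the members (14798 bases), and its fall held with the length and GC trends removed (adjusted p = 0.0326 without KO replicate 3). Ppm1d, the phosphatase Wip1 that turns off damage signalling and p53, was at 11.2, 9.78 and 10.8 FPKM across the KO libraries against 9.57, 9.38 and 9.99 FPKM across the WT libraries, and KO replicate 2 lay inside the WT range (limma adjusted p = 0.853, and 0.352 without KO replicate 3).

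Among members that act on the cell cycle, Cdkn1a (ENSMUSG00000023067, chr17:29090976-29100727, plus strand), which encodes the cyclin-dependent kinase inhibitor p21, had the largest fitted difference. It was at 27.3, 30.1 and 15.2 FPKM across the KO libraries against 16.9, 17.7 and 18.1 FPKM across the WT libraries. KO replicates 1 and 2 stood well above the WT libraries and KO replicate 3 below all of them. With all libraries Cdkn1a had a log2 fold change of 0.39 (95% interval -0.13 to 0.90) with a limma adjusted p of 0.843, and an exact permutation test, two-sided, gave p = 0.4. Without KO replicate 3 Cdkn1a rose by 0.68 on the log2 scale (adjusted p = 0.00544). Its exons share 273 bases with a gene on the opposite strand, and the sources do not state whether counting used strand.

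Ccng1 (ENSMUSG00000020326, chr11:40748552-40755311, minus strand), cyclin G1, a direct p53 target that acts with protein phosphatase 2A, was at 81.2, 71.5 and 54.0 FPKM across the KO libraries against 60.8, 58.3 and 61.0 FPKM across the WT libraries. As for Cdkn1a, KO replicates 1 and 2 were above and KO replicate 3 below every WT library. Its log2 fold change was 0.18 (limma adjusted p = 0.870) with all libraries, and without KO replicate 3 it rose by 0.34 (adjusted p = 0.0257). Zmat3, an RNA-binding zinc finger protein that acts in p53-dependent growth control, was at 6.58, 5.78 and 4.43 FPKM across the KO libraries against 4.78, 4.26 and 4.79 FPKM across the WT libraries. KO replicate 3 was within the WT range, and without it Zmat3 rose by 0.36 (adjusted p = 0.0452).

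**Figure D3:**
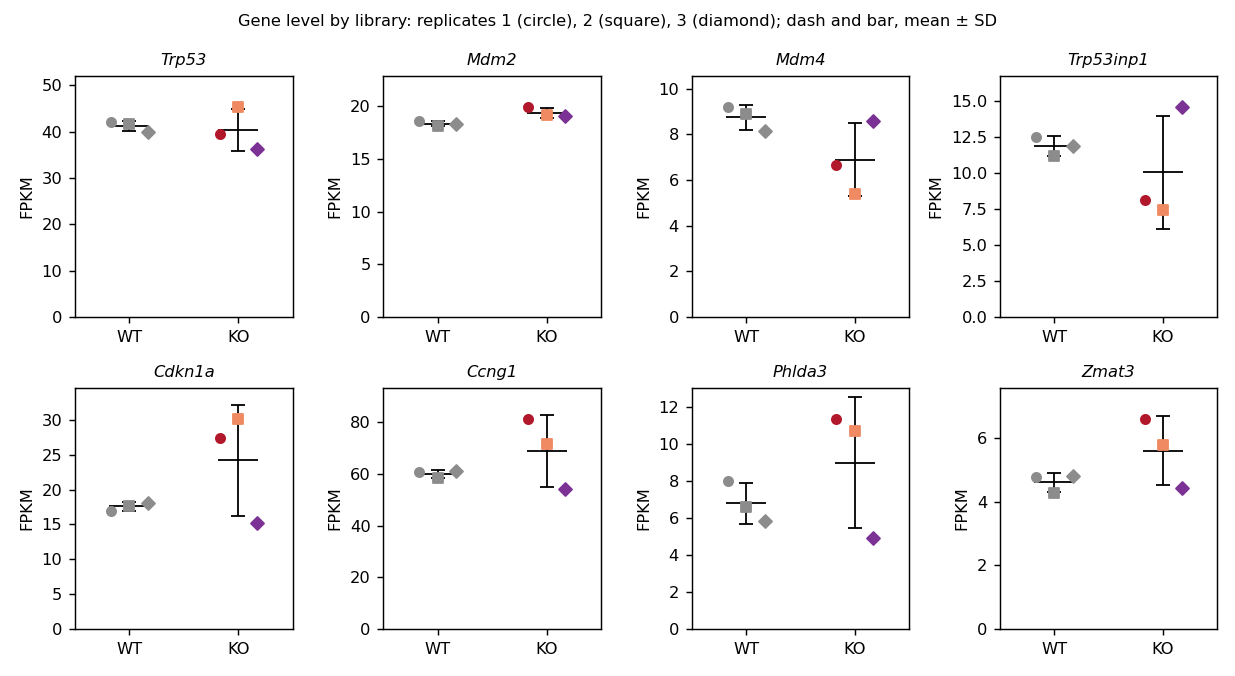
FPKM (y axis, from 0) of 8 members in WT (grey) and KO (coloured) libraries, with replicates 1, 2 and 3 as circle, square and diamond, and the mean and SD of each group of 3 as a dash and bar. KO replicate 3 lies below every WT library for Cdkn1a, Ccng1 and Phlda3 and above every one for Trp53inp1, opposite to KO replicates 1 and 2.

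The other cell cycle members did not pass in either fit. Btg2, an antiproliferative factor, was at 25.9, 20.4 and 15.3 FPKM across the KO libraries against 16.3 to 18.4 FPKM across the WT libraries (limma adjusted p = 0.870, and 0.0543 without KO replicate 3). Gtse1, a microtubule-associated protein of the G2 and S phases that moves p53 out of the nucleus, was at 29.1, 35.8 and 25.2 FPKM across the KO libraries against 27.3 to 28.3 FPKM across the WT libraries. Both, like Cdkn1a, had KO replicate 3 below and the other two KO libraries above every WT library. Plk2, a polo-like kinase, was at 5.92, 5.29 and 7.58 FPKM across the KO libraries against 4.98 to 5.40 FPKM across the WT libraries, so that KO replicate 3 was the highest. Plk3, its relative, was at 8.49, 10.4 and 9.21 FPKM across the KO libraries against 8.52 to 8.86 FPKM across the WT libraries. Gadd45a, a stress sensor that binds p21 and PCNA, was low in every library (1.26 to 1.98 FPKM) with overlapping groups. By limma, Gtse1 had log2 fold changes of 0.09 with all libraries and 0.20 without KO replicate 3 (adjusted p = 0.900 and 0.152), and Plk2 of 0.21 and 0.08 (0.843 and 0.502). Those of Plk3 were 0.09 and 0.10 (0.876 and 0.492), and those of Gadd45a -0.07 and -0.17 (0.928 and 0.414). Of the 8 cell cycle members, 7 had a log2 fold change above 0, with a median of 0.19, beside 41.3 percent of all tested genes and their median of -0.0252.

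Members linked to cell death pointed both ways. Phlda3, a pleckstrin homology protein that restrains Akt at the membrane, was at 11.3, 10.7 and 4.91 FPKM across the KO libraries against 8, 6.59 and 5.82 FPKM across the WT libraries. KO replicate 3 was the lowest of the 6, and the KO spread was wide, 8.99 ± 3.55 FPKM against 6.81 ± 1.11 FPKM across the WT libraries (SD, n = 3 each). With all libraries its log2 fold change was 0.29 (limma adjusted p = 0.875), and without KO replicate 3 it rose by 0.63 (adjusted p = 0.0240). Perp, a tetraspan membrane protein of desmosomes and apoptosis, was at 7.92, 7.60 and 6.26 FPKM across the KO libraries against 5.52, 5.47 and 6.42 FPKM across the WT libraries. KO replicate 3 was below one WT library. Its log2 fold change of 0.28 (95% interval 0.03 to 0.52) had the smallest unadjusted p of all members, 0.0321 by limma (adjusted p = 0.843), and without KO replicate 3 it rose by 0.37 (adjusted p = 0.0392).

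Aen, an exonuclease that degrades DNA and RNA in apoptosis, was at 12.6, 13.2 and 8.76 FPKM across the KO libraries against 10.9, 10 and 10.5 FPKM across the WT libraries. KO replicate 3 was again below and the other two KO libraries above every WT library, and without KO replicate 3 it rose by 0.28 (limma adjusted p = 0.0410, against 0.899 with all libraries). Ei24, a membrane protein of the endoplasmic reticulum linked to autophagy, was at 19.6, 18.8 and 14.8 FPKM across the KO libraries against 15.4, 17 and 16.1 FPKM across the WT libraries (adjusted p = 0.876, and 0.0561 without KO replicate 3).

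Trp53inp1, a nuclear and autophagosomal protein that promotes p53 activity, differed from WT in the opposite directions. It was at 8.13, 7.40 and 14.6 FPKM across the KO libraries against 12.5, 11.1 and 11.9 FPKM across the WT libraries, so that KO replicate 3 was the highest of the 6 and KO replicates 1 and 2 the lowest. Its log2 fold change was -0.28 with all libraries (limma adjusted p = 0.870), and without KO replicate 3 it fell by 0.55 (adjusted p = 0.0118). Apaf1, the scaffold of the apoptosome, was at 5.82, 4.83 and 7.47 FPKM across the KO libraries against 6.95, 6.39 and 5.72 FPKM across the WT libraries. KO replicate 2 was the lowest and KO replicate 3 the highest, and neither fit called it (adjusted p = 0.922, and 0.193 without KO replicate 3).

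Fas, the death receptor, was at 8.10, 5.99 and 7.44 FPKM across the KO libraries against 6.57, 6.04 and 6.31 FPKM across the WT libraries, with KO replicate 2 the lowest of all. Pidd1, the death domain scaffold that activates caspase 2, was at 5.64, 6.90 and 4.80 FPKM across the KO libraries against 6.36 to 6.80 FPKM across the WT libraries. By limma, the log2 fold changes of Fas were 0.15 with all libraries and 0.13 without KO replicate 3 (adjusted p = 0.866 and 0.484), and those of Pidd1 -0.16 and -0.06 (0.867 and 0.696). Eda2r, the ectodysplasin A2 receptor, was the member left untested, at 0.0321 to 0.0598 FPKM across the KO libraries against 0.0136 to 0.0355 FPKM across the WT libraries. Read depth is unknown, so the sampling error of these values cannot be given.

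The 5 DNA repair members were at 2 to 6 FPKM and 0 passed in either fit. Xpc and Ddb2, which recognise ultraviolet lesions for nucleotide excision repair, were at 2.69 to 3.52 and 2.28 to 3.35 FPKM across the KO libraries against 2.74 to 3.44 and 2.78 to 3.26 FPKM across the WT libraries. Rrm2b, the p53-inducible ribonucleotide reductase subunit that supplies nucleotides outside S phase, was at 2.81, 2.07 and 3.19 FPKM across the KO libraries against 2.78 to 3.01 FPKM across the WT libraries. Polk, a translesion polymerase, was at 3.53, 3.25 and 4.32 FPKM across the KO libraries against 3.59 to 4.53 FPKM across the WT libraries, with KO replicates 1 and 2 the lowest. Ercc5, the endonuclease XPG, was at 4.90 to 5.59 FPKM across the KO libraries against 4.37 to 4.92 FPKM across the WT libraries. Of the 5, only Ercc5 had a log2 fold change above 0 in the fit to all libraries, beside 41.3 percent of all tested genes. Their median was -0.0786, beside -0.0252 over all genes. When KO replicate 3 was left out their log2 fold changes ran from -0.19 to 0.13, with limma adjusted p from 0.241 to 0.438.

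Among the 5 metabolic members, Dcxr, a carbonyl reductase of the uronate cycle, was at 3.67, 3.84 and 2.11 FPKM across the KO libraries against 2.95, 2.03 and 2.16 FPKM across the WT libraries. Without KO replicate 3, which lay within the WT range, Dcxr rose by 0.50 (limma adjusted p = 0.0495, against 0.859 with all libraries). Abhd4, a lysophospholipase of N-acyl phospholipids, was at 4.87, 4.78 and 5.51 FPKM across the KO libraries against 3.79, 4.58 and 4.74 FPKM across the WT libraries. Its groups did not overlap, but the log2 fold change of 0.18 did not pass (adjusted p = 0.843, and 0.421 without KO replicate 3).

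Tigar, a fructose bisphosphatase that lowers glycolytic flux, was at 9.04 to 9.65 FPKM across the KO libraries against 8.88 to 9.88 FPKM across the WT libraries, a log2 fold change of -0.00 with a 95% interval of -0.18 to 0.17 (-0.03, from -0.19 to 0.13, without KO replicate 3). Sesn1, sestrin 1, which restrains mTORC1, was at 5.16 to 5.61 FPKM across the KO libraries against 5.60 to 5.99 FPKM across the WT libraries (95% interval of the difference -0.25 to 0.11, and -0.26 to 0.08 without KO replicate 3). Ephx1, microsomal epoxide hydrolase, was at 5.10 to 6.42 FPKM across the KO libraries against 5.16 to 6.12 FPKM across the WT libraries. Its log2 fold changes were 0.06 and 0.04 in these fits (limma adjusted p = 0.910 and 0.824).

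Isoforms were read from the transcript table, which holds 147 transcripts of the members, of which 55 of 30 members were tested. By limma 0 of 55 passed, beside 8 of 19184 transcripts (0.0417 percent), and without KO replicate 3 0 of 51 passed, beside 5 of 18288 (0.0273 percent). At an unadjusted p under 0.05 were ENSMUST00000155285 of Mdm2 and ENSMUST00000171247 of Trp53. Of the 55, 4 lay above WT in all KO libraries (7.27 percent, beside 4.71 percent of all transcripts) and 1 below (1.82 percent, beside 6.36 percent).

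The largest of these 5 differences was in Mdm2, whose p53-responsive promoter is known to lie in its first intron, outside the window searched. Whether that promoter or p53 has a part in the difference was not tested. ENSMUST00000020408, the full-length transcript of 489 codons that starts at the first exon, was at 23.4, 25.6 and 24.6 FPKM across the KO libraries against 25.4, 24.7 and 24.7 FPKM across the WT libraries. ENSMUST00000155285, annotated as a target of nonsense-mediated decay, was chosen for its values and starts 736 bases downstream, 6 bases into exon 2 of the full-length transcript. It was at 9.44, 5.62 and 6.38 FPKM across the KO libraries against 3.55, 3.39 and 4.88 FPKM across the WT libraries. All KO libraries, KO replicate 3 included, were above all WT libraries, and its share of the summed Mdm2 transcript FPKM was 26.8, 16.5 and 19.1 percent in KO and 11, 10.4 and 15.3 percent in WT. KO exceeded WT by 0.71 on the log2 scale (95% interval 0.15 to 1.26) with an unadjusted limma p of 0.0211, which did not pass over all transcripts (adjusted p = 0.822, and 0.309 to 0.999 over the alternatives). The full-length transcript had a log2 fold change of -0.02 (95% interval -0.21 to 0.16) with all libraries and -0.02 without KO replicate 3. In the authors' deposited table ENSMUST00000155285 had a fold of 1.81 with q = 0.0668. The span of this transcript lies within that of the full-length one, and the authors' software estimated how reads were divided between them. Among untested Mdm2 transcripts, ENSMUST00000132277, a retained-intron form, lay below WT in all KO libraries (0.123 to 0.466 against 0.659 to 1.18 FPKM). ENSMUST00000137102 and ENSMUST00000147823, which start in the first intron, averaged 0.633 and 0.567 FPKM in KO against 0.206 and 0.803 FPKM in WT.

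**Figure D4:**
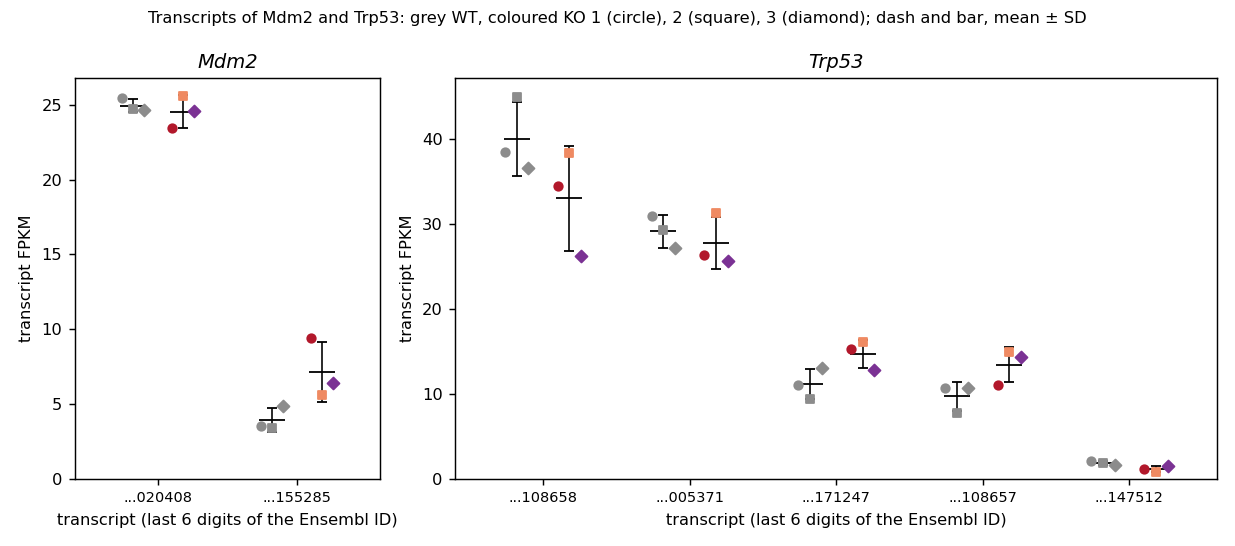
FPKM (y axis, from 0) of the tested transcripts of Mdm2 (left) and Trp53 (right) in WT (grey) and KO (coloured) libraries, with replicates 1, 2 and 3 as circle, square and diamond and the mean and SD of 3 libraries as a dash and bar. The Mdm2 transcript ENSMUST00000155285 lies at 5.62 to 9.44 FPKM across the KO libraries against 3.39 to 4.88 FPKM across the WT libraries, while the full-length one overlaps between groups.

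Trp53 was spread over 4 coding transcripts. The 2 of highest mean, ENSMUST00000108658 of 390 codons and ENSMUST00000005371 of 387 codons, were at 26.2 to 38.3 and 25.6 to 31.2 FPKM across the KO libraries against 36.6 to 44.9 and 27.1 to 30.9 FPKM across the WT libraries, with overlap. The other two, chosen after their values were seen, encode shorter proteins. ENSMUST00000108657 of 378 codons was at 11, 14.9 and 14.3 FPKM across the KO libraries against 10.7, 7.71 and 10.7 FPKM across the WT libraries, and ENSMUST00000171247 of 381 codons at 15.2, 16 and 12.8 FPKM across the KO libraries against 11, 9.41 and 13 FPKM across the WT libraries. Together they made up 29.8, 30.4 and 33.7 percent of the summed Trp53 transcript FPKM across the KO libraries against 23.2, 18.4 and 26.6 percent in WT, so that the shares did not overlap. Neither passed over all transcripts. The log2 fold changes were 0.43 for the 378-codon and 0.38 for the 381-codon transcript (limma adjusted p = 0.885 for each), and 0.38 and 0.47 without KO replicate 3 (adjusted p = 0.444 and 0.287). These transcripts share most of their exons, and how reads were divided between them was estimated by the authors' software.

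Of the Cdkn1a transcripts, ENSMUST00000023829 from the downstream start was at 49.7, 54.4 and 28.0 FPKM across the KO libraries against 30.3, 32.0 and 32.9 FPKM across the WT libraries. ENSMUST00000119901, from the upstream start next to the element shown earlier, was at 1.59, 2.17 and 0.222 FPKM across the KO libraries against 0.797 to 1.35 FPKM across the WT libraries. In both, KO replicates 1 and 2 were above and KO replicate 3 below every WT library. Their log2 fold changes were 0.40 and 0.06 with all libraries (limma adjusted p = 0.912 and 0.985) and 0.70 and 0.47 without KO replicate 3 (adjusted p = 0.107 and 0.364). The remaining tested transcripts whose groups did not overlap were ENSMUST00000115086 of Ei24 and ENSMUST00000027214 of Ercc5, higher in KO, and ENSMUST00000147512 of Trp53, a noncoding transcript, lower in KO.

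Other genes of the pathway were taken in 4 lists. Of 20 tested further activated targets 0 passed with all libraries, beside 0.110 percent of all genes. Without KO replicate 3, 5 rose and 1 fell, beside 4.0 and 6.14 percent. Rps27l, a ribosomal protein paralog induced by p53, was at 140, 136 and 73.8 FPKM across the KO libraries against 91.7 to 95.2 FPKM across the WT libraries, and rose by 0.56 without KO replicate 3 (limma adjusted p = 0.00422). Bax, the mitochondrial pore-forming death effector, was at 56.2, 55.5 and 39.9 FPKM across the KO libraries against 43.0 to 45.4 FPKM across the WT libraries, and rose by 0.32 in that fit (adjusted p = 0.0165). Both had KO replicate 3 below every WT library, as Cdkn1a did. Bbc3, the BH3-only protein Puma, was at 4.81, 5.17 and 3.04 FPKM across the KO libraries against 3.25 to 3.81 FPKM across the WT libraries, and rose by 0.40 (adjusted p = 0.0350). Klf4 rose by 0.58 (limma adjusted p = 0.0177) and Casp1 by 0.51 (adjusted p = 0.0458) in the same fit. The fall was in Lif. Pmaip1, the BH3-only protein Noxa, was the 1 gene of these 20 above WT in all KO libraries, beside 4.28 percent of all tested genes. It was at 4.92 to 5.54 FPKM across the KO libraries against 4.39 to 4.90 FPKM across the WT libraries, and passed in neither fit. With length and GC trends removed in the fit without KO replicate 3, Bax (0.21, limma adjusted p = 0.0758) and Bbc3 (0.30, adjusted p = 0.0777) no longer passed and Rps27l did (0.49, adjusted p = 0.00379).

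Of 13 tested damage kinases and sensors, which signal to p53, 0 had a log2 fold change above 0, beside 41.3 percent of all genes, and 0 passed with all libraries. In the fit without KO replicate 3, 4 fell, beside 6.14 percent of all genes: Brca1, Rad50, Mdc1 and Hipk2. With length and GC trends removed in that fit the Hipk2 difference went from -0.46 to -0.41 and just missed the threshold (limma adjusted p = 0.0389 and 0.0503). Brca1, a repair and checkpoint protein, was at 9, 8.53 and 11.7 FPKM across the KO libraries against 11.3 to 12.4 FPKM across the WT libraries (limma adjusted p = 0.0228 without KO replicate 3, 0.843 with it). Rad50, of the break-sensing MRN complex, was at 13, 12.5 and 18.6 FPKM across the KO libraries against 16.4 to 18.3 FPKM across the WT libraries. Atrip, the partner of the kinase ATR, was at 4.21 to 5.10 FPKM across the KO libraries against 4.93 to 5.67 FPKM across the WT libraries and passed in neither fit.

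Of 17 tested regulators of the p53 protein, 1 fell with all libraries, the targeted gene Sirt2, beside 0.110 percent of all genes called. Without KO replicate 3, 3 fell, beside 6.14 percent of all genes: Sirt2, Huwe1, a ubiquitin ligase, and Ep300, an acetyltransferase. The limma adjusted p was 0.0473 for Huwe1 and 0.0477 for Ep300. Huwe1 was at 15.3, 14.1 and 19.7 FPKM and Ep300 at 6.08, 5.26 and 8.73 FPKM in KO replicates 1 to 3. With length and GC trends removed in that fit, Huwe1 went from -0.28 to -0.14 (limma adjusted p = 0.150) and Ep300 from -0.35 to -0.26 (0.0769), and neither passed. Daxx and Sirt1, the next by p, passed in neither of these first fits, and Daxx passed with those trends removed. Genes that p21 represses through the DREAM complex, most of them mitotic, had 4 of 20 log2 fold changes above 0, beside 41.3 percent of all genes, and a median of -0.0538, beside -0.0252. Their median differences from the WT mean were -0.0706, -0.0158 and -0.0752 in KO replicates 1 to 3. Those of all tested genes were -0.0444, -0.0283 and 0.00569. The list was thus lowest in KO replicate 3, where Cdkn1a was below every WT library, and a link to Cdkn1a was not tested. With all libraries 0 of the 20 passed, and without KO replicate 3, 2 fell, Mki67 and Top2a, beside 6.14 percent of all genes. With length and GC trends removed in that fit Top2a went from -0.23 to -0.13 and no longer passed (limma adjusted p = 0.0776). Cdk1, also of this list, then passed in the other direction and rose by 0.23 (limma adjusted p = 0.0367, against 0.0571 before the removal). Mki67, the proliferation marker, was at 49.7, 41.4 and 66.8 FPKM across the KO libraries against 58.3 to 67.6 FPKM across the WT libraries (adjusted p = 0.0288 without KO replicate 3). Plk4, Prc1 and Foxm1, 3 of the 20, were below WT in all KO libraries, beside 6.88 percent of all genes, and passed in neither fit.

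The p53 signaling pathway of KEGG, as the authors' deposited annotation assigns genes to it and looked at after the data were seen, gave 42 tested genes that are not members, Bax and Bbc3 among them. With all libraries 0 of the 42 passed, and their median log2 fold change was -0.00798, beside -0.0252 over all genes. When KO replicate 3 was left out, 6 rose and 4 fell, beside 4.0 and 6.14 percent of all genes. The rises were in Bax, Bbc3, Bcl2l1, Ccne1, Cycs and Gadd45b, and the falls included Sesn3, Bcl2 and Siah1a. Sesn3, a sestrin like Sesn1, fell by 0.73 (limma adjusted p = 0.00528, against 0.843 with all libraries), and Bcl2, which blocks cell death, fell by 0.58 (adjusted p = 0.0129, against 0.910). In KO replicate 3 both were above every WT library. Siah1a was below WT in all KO libraries, at 7.15, 7.37 and 7.44 FPKM against 9.03, 9.05 and 9.79 FPKM. It fell by 0.32 without KO replicate 3 (limma adjusted p = 0.0339, against 0.545 with all libraries).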

How the data were processed

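The authors deposited a gene and a transcript table in FPKM, per the file headers, with each library in its own column. The deposited fold is a ratio: it equalled mean KO over mean WT FPKM within 0.1 percent for 24087 genes. The deposited log2 column is its logarithm, and the p-value and q-value columns test KO against WT by a tool not given in the sources used here. Per the submitters' processing notes, the tools were HISAT2, StringTie, edgeR, DESeq2, cutadapt and FastQC, with no version or role. Those notes name mm9, but 73240 of 73430 transcripts found in GENCODE M21 had identical GRCm38 coordinates. Gene FPKM equalled transcript FPKM times length over the gene's exonic length within 1 percent for 98.8 percent of 10861 genes, so transcript values do not sum to it. Read totals are not given. A common step fitted 15.0 to 16.9 percent of the low single-exon transcript values (tolerance 0.02 steps). Whole reads were therefore not recovered, and no count test or counting interval was used.

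Genes at 1 FPKM or more in at least 3 libraries were compared on log2(FPKM + 1), which understates changes of low genes, with limma 3.58.1 in R 4.3.3 (mean trend, Benjamini-Hochberg adjustment over all tested genes). Adjusted p under 0.05 was called, and "rose" and "fell" mean called. Trp53, Mdm2, Cdkn1a and Sirt2 also had an exact permutation test. The main fit was also run on simulated data, with all libraries drawn from the mean and spread of the WT libraries. Those data held no library like KO replicate 3, so that run does not check the calls that turn on it. Alternatives were median scaling, no filter, 5 FPKM, pseudocount 0.1, no trend, adjusted p under 0.01, the replicate number as a block, array weights, removal of length and GC trends, and leaving out each library. The fit joining that removal with leaving out KO replicate 3, and the counts outside the WT range, were added after the data were seen. Exons of 8 members overlap another gene, 7 of them on the opposite strand.

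The members and lists were chosen with earlier results of these data known. Named genes are the p53 regulators, Cdkn1a and Ccng1, members with groups that do not overlap or with a call when any library is left out, the 3 largest falls in KO replicates 1 and 2, the 3 genes of smallest p in each further list, and the 2 highest transcripts of a member, where the results turn on them; others were added after their values were seen. A planned wider search around gene starts was not run, since it needs a genome sequence, which was not used here.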

Additional observations from a re-analysis of the deposited data

How the results depend on the processing

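With the 5 FPKM filter 5 genes were called in all, and 7 at adjusted p under 0.01, beside 12. Among the members, 0 calls held in each alternative but array weights, which gave KO replicate 3 a weight of 0.157 and KO replicate 1 one of 3.15, and the fits without KO replicate 3. Array weights called 12 members of 2275 genes, and 24 genes of the further pathway lists. Removal of length and GC trends in the fit without KO replicate 3 gave 8 members, 11 list genes and 1020 genes. Leaving out 1 library in turn gave 0 to 9 members, 0 to 15 list genes, 0 to 1088 genes, 0 member transcripts and a member median of 0.039 to 0.103. Median scaling moved that median from 0.088 to 0.127. Such scaling moves all genes of a library in the same direction, and the median of all genes after it is not given here. The 1 list gene, Sirt2, became 0 with median scaling, no filter, the 5 FPKM filter, no trend, the replicate block, adjusted p under 0.01, and without KO replicate 1 or any single WT library; the cause was not tested. The replicate block called 0 members of 13 genes. Replicate numbers gave no sign of pairing. Deviations from group means correlated at 0.01, -0.02 and -0.08 for the same number, and 0 of 3 KO libraries correlated best with their own. With 3 libraries per group this cannot exclude pairing, and the labels do not state it. Of 30 members, 20 kept their sign in every alternative. Without read counts, sampling error at low levels cannot be given.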
